A study of Mus musculus with 2 samples.

Results

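The Kcnq1ot1 imprinted domain on distal mouse chromosome 7 was examined at 701 CpG cytosines of 421 CpGs, of 1850635 cytosines in the whole series. Its members were the cytosines inside 8 listed genes (Kcnq1ot1, Kcnq1, Cdkn1c, Phlda2, Slc22a18, Cd81, Tssc4 and Ascl2) or within 1 kb of their transcription starts. A cytosine was kept when it had at least 5 reads in each library and lay outside CCGG and TCGA, the recognition sites of the enzymes that cut the DNA. The measurement was reduced representation bisulfite sequencing, in which DNA is cut with MspI and TaqαI, size-selected and treated with bisulfite, so that unmethylated cytosine is read as T and methylated cytosine as C. The samples were myotubes, the multinucleate cells that mouse C3H myoblasts form in culture after a change to low-serum differentiation medium. One library came from cells given a control siRNA (siCon), the other from cells given an siRNA that targets the imprinted long non-coding transcript H19 (siH19), and DNA was taken 48 h after transfection. There was 1 library per group, so every test below compares 2 libraries and not 2 conditions, intervals cover counting error only, and a difference between the cultures and an effect of the knockdown cannot be told apart. RNA was not measured in these libraries, so neither the loss of H19 nor the myotube state could be checked against marker genes here.

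Imprinted genes are expressed from 1 parental chromosome only. In this domain the mark that sets the parental difference is laid down in the oocyte, on the CpG-rich promoter of Kcnq1ot1, so that this germline differentially methylated region is methylated on the maternal chromosome and bare on the paternal one. The paternal chromosome transcribes Kcnq1ot1, a long non-coding RNA that runs antisense through Kcnq1 and keeps its protein-coding neighbours silent in cis. Cdkn1c, which encodes the cell cycle inhibitor p57 and takes part in muscle differentiation, carries a second mark that is acquired after fertilisation on the paternal chromosome, a somatic differentially methylated region. A region with 1 methylated and 1 bare parental copy reads at an intermediate level when the alleles are not told apart, as here.

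The results turned on a few restriction fragments, and these are shown because neighbouring cytosines in 1 fragment are read from the same molecules. All are given on the plus strand of GRCm38, 5′ to 3′, with the CpGs that were measured in capitals. Kcnq1ot1 and Cdkn1c themselves lie on the minus strand. Fragment A (chr7:143295498-143295616), 933 to 1051 bases downstream of the Kcnq1ot1 start, lies in the Kcnq1ot1 transcript and in an intron of Kcnq1 and is the only fragment with members in the Kcnq1ot1 promoter window. Fragment B (chr7:143295375-143295441) is the next measured one, 1108 to 1174 bases downstream of that start.
Kcnq1ot1 fragment A: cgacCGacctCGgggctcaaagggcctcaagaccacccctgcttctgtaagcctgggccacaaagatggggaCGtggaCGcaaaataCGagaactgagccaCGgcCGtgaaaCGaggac
Kcnq1ot1 fragment B: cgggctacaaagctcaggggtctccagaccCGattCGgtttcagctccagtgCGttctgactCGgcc
Fragment C (chr7:143459335-143459448) lies in an intron of Cdkn1c and held most of its strongly changed cytosines. Fragment D (chr7:143460063-143460140) lies in coding sequence of Cdkn1c and holds 1 highly methylated CpG among intermediate ones. Fragment F (chr7:143459204-143459285) crosses the border between an intron and a coding exon, which ends on the plus strand at position 143459250.
Cdkn1c fragment C: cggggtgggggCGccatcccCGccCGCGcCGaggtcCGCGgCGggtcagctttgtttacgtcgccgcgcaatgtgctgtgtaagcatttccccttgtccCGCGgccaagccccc
Cdkn1c fragment D: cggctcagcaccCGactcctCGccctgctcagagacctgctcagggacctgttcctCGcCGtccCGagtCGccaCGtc
Cdkn1c fragment F: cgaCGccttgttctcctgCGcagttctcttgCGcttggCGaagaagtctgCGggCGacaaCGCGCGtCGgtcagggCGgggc

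Coverage set what could be seen. Depth summed over all deposited cytosines, enzyme sites included, was 104999613 in siCon and 106372792 in siH19. A read counts there at every cytosine that it crosses, so these are not numbers of reads. The median depth of a deposited cytosine was 12 in siCon and 13 in siH19. At the 701 members, which had to have at least 5 reads in each library, the median depths were 18 and 19. They fell into 110 restriction fragments, and 18 of them lay in soft-masked repeats. In the Kcnq1ot1 promoter window, 6 of the 78 CpGs of the reference (7.69%) were measured, none of them within 500 bp of the start. In the Cdkn1c window it was 45 of 171 (26.3%). No member lay in the Slc22a18 window, which holds 11 CpGs.

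At the level of single cytosines the domain differed little between the libraries. The mean level over the 701 cytosines was 22.9% in siCon and 22.3% in siH19, with 262 cytosines higher in siH19, 289 lower and 150 equal. The median difference was 0 points, as it was over all cytosines. A cytosine was called strongly changed when Fisher's exact test (two-sided) of methylated against unmethylated reads gave a p under 0.05 and the levels differed by at least 33 percentage points. This held for 14 members (2.00%), 8 higher and 6 lower in siH19, against 0.986% of all cytosines tested. At p under 0.05 alone there were 18 members (2.57%), against 2.53% of all cytosines. After Benjamini-Hochberg adjustment over all 1850635 cytosines none of the 701 passed 0.05 by Fisher's exact test, against 120 of all cytosines (0.00648%), and the smallest adjusted p of a member was 0.368. That member, named after its values were seen, was the minus-strand cytosine at 143502540 in an exon of Phlda2, with 13 of 85 reads methylated in siCon and 0 of 75 in siH19, which allows a share of up to 4% (Fisher's exact test, p = 0.000197). It fell short of the 33 points, and its plus-strand partner went the other way, from 3.64% to 10.5%. The shallowest minus-strand cytosine of its fragment had only 44 reads in siCon and 37 in siH19. Whether 1 molecule was counted more than once at 143502540 was not tested, and its p and the 4% assume that none was. Otherwise the p is too small and the 4% too low.

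Spread within a library was read from the opposite strands of the same CpG. Plus and minus strand differed at p under 0.05 by Fisher's exact test at 10 of 280 member CpGs (3.57%) in siCon and at 11 of 280 (3.93%) in siH19, and at 3.51% and 3.28% of 755414 CpGs of the series. Of the 14 strongly changed cytosines, 12 had the opposite strand measured, and in 8 of these the opposite strand differed in the same direction. Among the 8 were 7 from a single restriction fragment, fragment C of Cdkn1c, so they are not independent.

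The first regional comparison asked whether the maternal germline mark at the Kcnq1ot1 promoter differed after transfection of siH19. The 12 cytosines of the window had a mean level of 30.8% ± 8.5 (SD over cytosines) in siCon and 46.7% ± 17.4 in siH19, and all 12 were higher in siH19. The Cochran-Mantel-Haenszel test, which compares the libraries within each cytosine and then pools, gave a difference of 16.2 points (SE 4.62), with a chi-square p of 0.000701 and an adjusted p of 0.0171 over all promoters with at least 5 cytosines. With the minimum of 10 points, the window was called, as were 122 of 19476 promoters (0.626%). The 209 reads of siCon and 196 of siH19 behind this value were counted at every cytosine that they crossed.

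All 12 cytosines belonged to fragment A, so the number of molecules was far smaller than the number of reads summed. Counted once per fragment and strand, there were 10 methylated of 34 reads in siCon (29.4%) and 15 of 32 in siH19 (46.9%). On this count the difference was 16.9 points, with a 95% interval from -5.73 to 39.5, and did not pass (chi-square p = 0.156, adjusted p = 1). The size of the difference was nearly the same on both counts, which follows from their use of the same cytosine levels. Only the first passed.

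The whole of fragment A held 16 cytosines, and in all 16 the level was higher in siH19. On the plus strand the 8 cytosines ranged from 11.1% to 27.8% in siCon, with 17 to 18 reads, and from 20% to 40% in siH19, with 15 reads at each. On the minus strand they ranged from 29.4% to 41.2% in siCon and from 33.3% to 72.2% in siH19, with 17 to 18 reads. The ranges of the libraries overlapped on both strands. On the minus strand of siH19 the SD among cytosines was 14.4 points, against a binomial SD of 11.96 points for 1 cytosine of that depth, and in the other 3 combinations of strand and library it was 4.16 to 6.90 points, against 9.99 to 12.01.

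Fragment B, the next one into the transcript, was not higher in siH19. Of its 8 cytosines, 7 were lower in siH19 and 1 was equal. Counted once, 20 of 37 reads (54.1%) were methylated in siCon and 32 of 63 (50.8%) in siH19 (Fisher's exact test, p = 0.837). The remaining fragments of the Kcnq1ot1 body lay 30428 bases or more from the start.

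**Figure D1:**
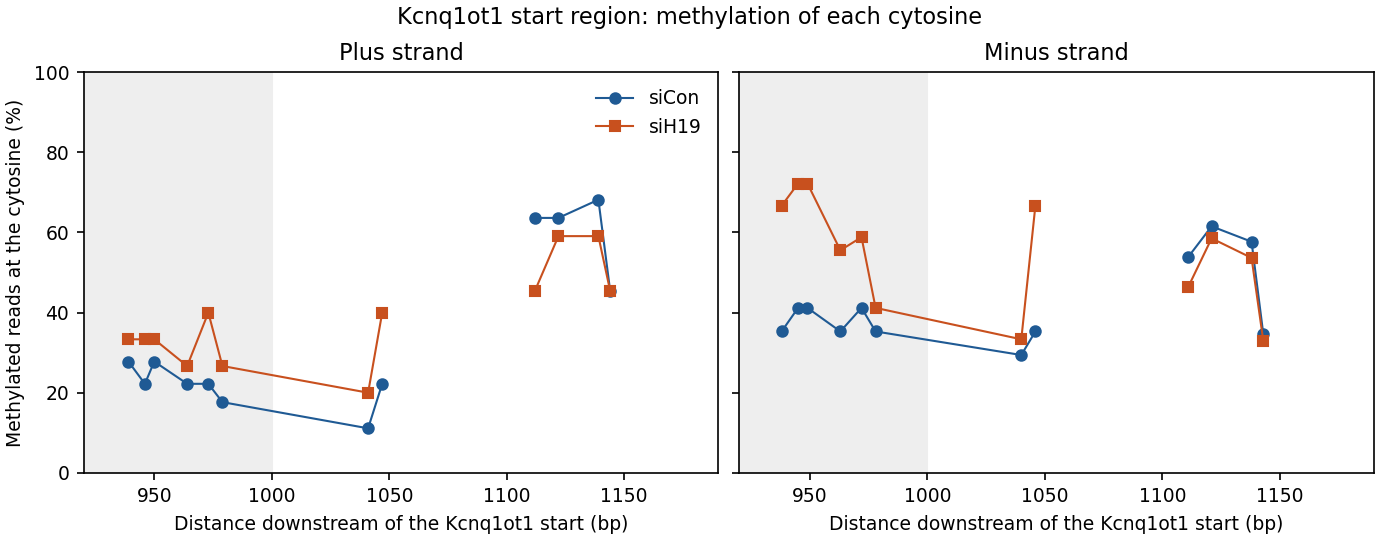
Methylation level in percent of each measured cytosine near the Kcnq1ot1 start, by distance downstream of the start in bp, with siCon as circles and siH19 as squares, lines joining cytosines of 1 fragment, and the part inside the 1 kb window shaded. In fragment A, on the left of each panel, all 16 cytosines are higher in siH19, while in fragment B, on the right, 7 of 8 are lower.

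The window of Kcnq1ot1 was set against windows at the annotated starts of other genes that have a maternal germline differentially methylated region. Whether each window covers that region was not tested. Of the planned ones, Airn had 15 cytosines, Peg3 had 6 and Snrpn had none, so that 4 comparisons were possible. In siCon the share of methylated reads was 30.6% at Kcnq1ot1, 31.0% at Airn and 40.0% at Peg3, and the differences did not pass (Fisher's exact test, adjusted p = 1 and 0.109). In siH19 it was 48.0% at Kcnq1ot1, 36.9% at Airn and 35.9% at Peg3 (Fisher's exact test, adjusted p = 0.0430 for both). With reads counted once the adjusted p was 0.623 for both in siH19. Of 12 such start windows listed for genes with other germline regions, 9 had at least 5 cytosines. Their share of methylated reads in siCon ran from 31.0% to 97.4%. Plagl1 (78.0%) and Nnat (97.4%) were not at an intermediate level, and Nnat had little room to rise. None was called, and their differences between the libraries ran from -6.13 to 6.83 points, against 16.2 points at Kcnq1ot1.

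ZFP57, a zinc finger protein, maintains methylation at imprinting regions through the methylated hexamer TGCCGC. The hexamer was searched on both strands of the 1 kb windows, and its letters contain neither enzyme site. It matched 3 times in the Kcnq1ot1 window, 3 times each in those of Kcnq1 and Ascl2, and once each in those of Cdkn1c and Tssc4, while 28.6% of 55413 such windows held at least 1 match. None of the matches in the Kcnq1ot1 window was among the measured CpGs, so the level at these letters is not given here.

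The next comparison concerned Cdkn1c, the somatic mark. Its promoter window had 64 cytosines of 6 fragments, with 1010 reads in siCon and 1076 in siH19, and a mean level of 41.0% ± 27.1 (SD over cytosines) in siCon and 31.8% ± 27.0 in siH19. In siH19, 40 cytosines were lower and 15 higher. The Cochran-Mantel-Haenszel difference was -7.00 points (SE 1.87) with an adjusted p of 0.00934, and the window was not called because it stayed under 10 points. Within 500 bp of the start the difference was -12.7 points (chi-square adjusted p = 0.0586), and the adjusted p also missed 0.05 with at least 10 reads (chi-square, 0.107), with cytosines in enzyme sites included (0.0807) and with the spread between fragments and strands (0.920). With reads counted once it was 71 of 141 (50.4%) in siCon and 56 of 144 (38.9%) in siH19. Within strata this was -8.25 points, with a 95% interval from -19.1 to 2.61 (chi-square p = 0.142, adjusted p = 1). The windows of Kcnq1ot1 and Cdkn1c therefore differed in opposite directions, and neither passed with reads counted once.

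The body of Cdkn1c had 151 cytosines and stood at 36.8% ± 28.1 (SD over cytosines) in siCon and 35.5% ± 26.2 in siH19 (difference -0.11 points, 95% interval -2.23 to 2.01, chi-square adjusted p = 0.979). Body and window together, with 165 cytosines, held 11 of the 14 strongly changed ones. Of these, 7 lay in fragment C, where all 20 cytosines were higher in siH19. On the plus strand the mean of fragment C was 9.23% in siCon and 42.4% in siH19, and on the minus strand it was 7.22% and 26.1%. Counted once, this was 2 of 32 reads (6.25%, Wilson 95% interval 1.73 to 20.1) in siCon and 13 of 40 (32.5%, 20.1 to 48.0) in siH19. Fisher's exact test gave p = 0.00803, which did not pass over all fragments (adjusted p = 1). Fragment C was singled out for its difference between the libraries, so the unadjusted p and the intervals are descriptions.

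The strongly changed cytosines of Cdkn1c with the lowest p in each direction were these. On the plus strand of fragment C, position 143459355 was methylated in 1 of 16 reads in siCon and 8 of 17 in siH19 (Fisher's exact test, p = 0.0167), and position 143459371 in 1 of 14 and 8 of 17 (p = 0.0207 by the same exact test). Their minus-strand partners were also higher, at 5.56% against 21.7% and 5.56% against 30.4%. In the other direction, the plus-strand cytosine at 143459790 in an intron was methylated in 18 of 22 reads (81.8%) in siCon and 12 of 37 (32.4%) in siH19 (Fisher's exact test, p = 0.000368, adjusted p = 0.468). Its minus-strand partner did not share this, at 54.3% in siCon and 60.9% in siH19. The shallowest plus-strand cytosine of that fragment had only 11 reads in siCon and 19 in siH19. Depth on the plus strand of fragment B stepped likewise, from 11 to 22 reads in siCon and from 22 to 44 in siH19. Whether 1 molecule was counted more than once at 143459790 was not tested. The p given for it assumes that none was, and is too small otherwise. The minus-strand cytosine at 143460693 in coding sequence went from 13 of 16 reads to 1 of 6 (Fisher's exact test, p = 0.0109), while its partner was at 44.4% and 66.7%. Of the 4 strongly lower cytosines of Cdkn1c, 1 had a partner that was also lower, at 143460476, 2 had a higher partner and 1 had no partner measured, while the partners of all 7 strongly higher ones were higher.

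Within Cdkn1c the level changed sharply over short distances, in the same way in both libraries. In fragment D the CpG at position 143460122 was methylated in 93.3% of plus-strand and 97.5% of minus-strand reads in siCon, and in 83.8% and 96.2% in siH19. The other 12 cytosines of that fragment ranged from 27.5% to 52.5% in siCon and from 21.6% to 45.9% in siH19, without overlap with it. This CpG was chosen as the highest of the fragment, so its place above the others follows from the choice. In fragment F the 8 cytosines of the coding exon ranged from 77.8% to 100% in siCon and from 80.0% to 100% in siH19. The 14 cytosines on the intron side ranged from 5.88% to 65.4% and from 21.4% to 66.7%. Exonic and intronic cytosines of this fragment did not overlap in either library, although they were read from the same fragments. The CpGs at 143460669 and 143460682, coding in 1 annotated transcript, were methylated in all reads on both strands. They had 16 to 18 reads per cytosine in siCon and 6 in siH19. The other 6 cytosines of their fragment ranged from 44.4% to 81.3% in siCon and from 16.7% to 66.7% in siH19. The CpGs at 100% were chosen for that level, so their gap to the other 6 cytosines follows from the choice.

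**Figure D2:**
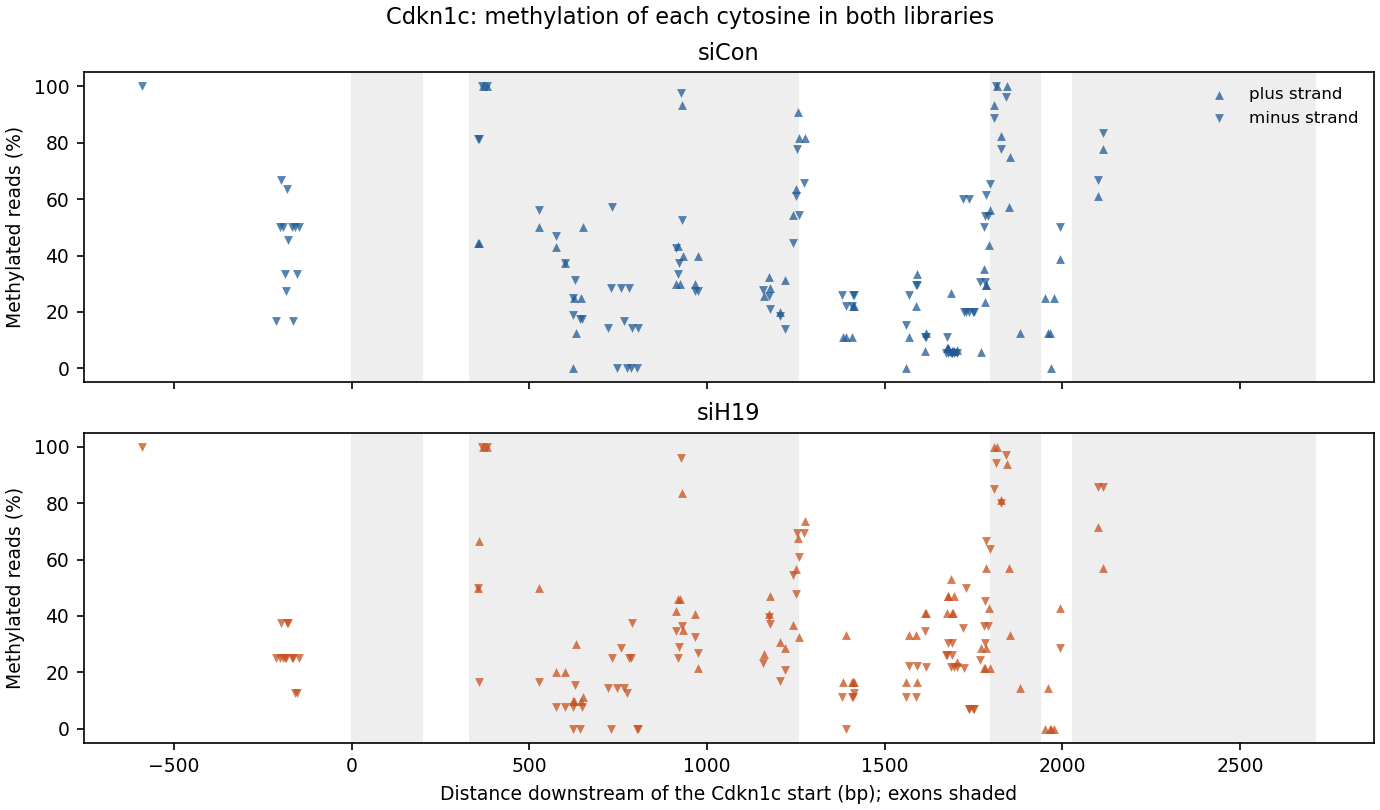
Methylation level in percent of each measured cytosine of Cdkn1c, by distance downstream of its start in bp, in siCon (top) and siH19 (bottom), with triangles pointing up for the plus strand and down for the minus strand and exons shaded. The cytosines of fragment C lie between 1602 and 1715 bp. Their means on the plus and minus strand are 9.23% and 7.22% in siCon and 42.4% and 26.1% in siH19. The CpGs at or near 100% in coding exons, picked out for their level, stand above their neighbours in both libraries.

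Kcnq1 encodes the pore subunit of a voltage-gated potassium channel and is the gene that Kcnq1ot1 crosses. The 19 cytosines near its start were at 19.2% ± 17.5 (SD over cytosines) in siCon and 19.3% ± 18.1 in siH19, with a difference of 0.0760 points (95% interval -5.47 to 5.62, chi-square adjusted p = 0.995). Its body had 204 cytosines at 27.1% ± 28.1 in siCon and 28.2% ± 28.3 in siH19, with a difference of 1.25 points (95% interval -0.16 to 2.65, chi-square adjusted p = 0.389). The share of methylated reads summed over the body moved more, from 22.3% to 28.2%, a value that also moves with how the reads of each library are spread over the cytosines. Split by position, the 68 cytosines of Kcnq1 before the end of Kcnq1ot1 had a mean of 12.8% in siCon and 12.7% in siH19. The 33 that overlap Kcnq1ot1 had 33.1% and 38.8%, and the 103 beyond its start had 34.7% and 35.0%. None of these 3 stretches passed with reads counted once (chi-square p = 0.546, 0.681 and 0.493), and the 33 overlapping cytosines are also the whole body of Kcnq1ot1. The body of Kcnq1ot1 itself differed by 4.78 points (95% interval -0.13 to 9.69, chi-square adjusted p = 0.327).

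A minus-strand cytosine at 143377063 in a Kcnq1 intron was methylated in 4 of 10 reads in siCon and in 19 of 19 in siH19 (Fisher's exact test, p = 0.000442, adjusted p = 0.508). Its plus-strand partner was at 100% in siCon and 93.3% in siH19. The fragment is 55 bases long, and whether 1 molecule was counted more than once at 143377063 was not tested. The p given for it assumes that none was. At 143373026, also intronic and on the plus strand, the reads went from 10 of 19 methylated to 1 of 9 (Fisher's exact test, p = 0.0491), with no partner measured. These were the 2 strongly changed cytosines of Kcnq1.

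Phlda2 and Slc22a18 lie beyond Cdkn1c and are maternally expressed in the placenta. Phlda2 encodes a small pleckstrin-homology protein that restrains placental growth. Its 75 window cytosines were at 15.7% ± 18.8 (SD over cytosines) in siCon and 14.3% ± 17.5 in siH19, which differed by -1.83 points (chi-square adjusted p = 0.331). Its body, with 88 cytosines, differed by -2.32 points (chi-square adjusted p = 0.210), and no cytosine of Phlda2 was strongly changed. Slc22a18 encodes a membrane transporter. Its 17 body cytosines were at 22.9% ± 32.2 in siCon and 22.2% ± 32.0 in siH19 (difference -1.22 points, chi-square adjusted p = 0.799).

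Single sites of Slc22a18 differed more than its body. The exonic minus-strand cytosine at 143480521 was methylated in 13 of 22 reads in siCon and 4 of 17 in siH19 (Fisher's exact test, p = 0.0496), while its plus-strand partner was at 31.3% and 61.9%, the opposite order. A fragment with 1 CpG in an intron (chr7:143476005-143476100) had 4 methylated of 55 reads in siCon and 0 of 65 in siH19, which allows a share of up to 4.62% (Fisher's exact test, p = 0.0415, adjusted p = 1). Whether 1 molecule was counted more than once there was not tested, and the p and the 4.62% assume that none was.

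Ascl2, Cd81 and Tssc4 lie on the other side of Kcnq1. Ascl2 encodes a basic helix-loop-helix factor of the placenta. Its window of 67 cytosines was at 24.4% ± 29.6 (SD over cytosines) in siCon and 23.7% ± 26.7 in siH19, and its body of 73 cytosines was at 15.5% ± 23.0 and 15.3% ± 22.8. The differences were -1.62 points (chi-square adjusted p = 0.477) and -0.88 points (adjusted p = 0.653). Cytosines of Ascl2 spread widely, and 56 of 104 were at 10% or less in both libraries while 13 lay between 25% and 75% in both.

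Cd81 encodes a tetraspanin of the cell surface, and its promoter was bare. The 49 window cytosines were at 0.65% ± 2.03 (SD over cytosines) in siCon and 0.76% ± 2.38 in siH19 (difference 0.40 points, chi-square adjusted p = 0.601). Of the 57 cytosines of the gene, 50 were at 10% or less in both libraries. A pair of intronic fragments stood above the rest, with 28 of 72 and 16 of 39 reads methylated in siCon and 34 of 81 and 12 of 29 in siH19. Neither passed the comparison of the libraries (Fisher's exact test, p = 0.743 and 1).

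Tssc4, a splicing-associated gene, was also nearly bare. Its 59 window cytosines were at 2.22% ± 8.25 (SD over cytosines) in siCon and 1.25% ± 5.24 in siH19 (difference -1.41 points, chi-square p = 0.0232, adjusted p = 0.153). The fragment with 1 CpG at chr7:143071034-143071108, in an exon, had 4 methylated of 38 reads in siCon and 1 of 75 in siH19 (Fisher's exact test, p = 0.0430, adjusted p = 1). Whether 1 molecule was counted more than once there was not tested, and the p assumes that none was. In another Tssc4 fragment the plus-strand depth was 31 reads in siCon and 47 in siH19 at position 143069106. At position 143069143 of the same fragment it was 16 and 24. The direction of the Tssc4 window turned when cytosines in enzyme sites were included.

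In order of level, with reads counted once, the windows in siCon ran from Cdkn1c (50.4%) over Kcnq1ot1 (29.4%), Kcnq1 (27.3%), Ascl2 (20.3%) and Phlda2 (16.6%) to Tssc4 (6.13%) and Cd81 (0.452%). The Wilson intervals of neighbours in this order overlapped down to Phlda2, and those of Phlda2 and Tssc4 and of Tssc4 and Cd81 did not. In siH19 the order began with Kcnq1ot1 (46.9%) and Cdkn1c (38.9%), whose intervals overlapped, followed by Ascl2 (20.1%), Kcnq1 (17.5%), Phlda2 (16.5%), Tssc4 (2.86%) and Cd81 (1.07%). The interval of Cdkn1c lay above that of Ascl2, and that of Phlda2 above that of Tssc4. The interval of Kcnq1 in siH19 (8.75% to 32.0%) overlapped those of Cdkn1c (31.3% to 47.0%) and Kcnq1ot1 (30.9% to 63.6%). By point value both differentially methylated regions stood at the top in both libraries. The interval of Kcnq1ot1 was not apart from that of Kcnq1 in either library. Intermediate levels, between 25% and 75% in both libraries, were found at 19 of 33 cytosines of Kcnq1ot1 (57.6%) and 53 of 165 of Cdkn1c (32.1%), against 15.4% of all cytosines. In the other genes they were found at 24.0% of cytosines of Kcnq1, which include those of Kcnq1ot1, 14.1% of Phlda2, 12.5% of Ascl2, 5.88% of Slc22a18, 5.26% of Cd81 and 1.61% of Tssc4. These shares are descriptions, since cytosines of 1 fragment are not independent.

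**Figure D3:**
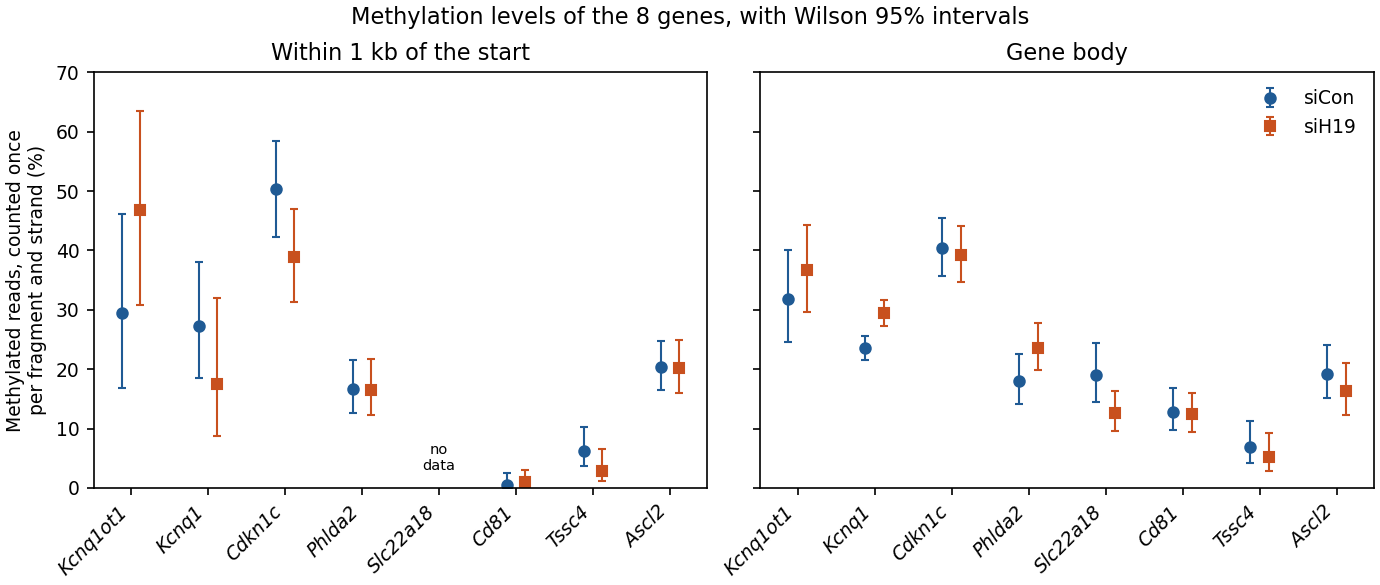
Share of methylated reads in percent, counted once per fragment and strand, in the 1 kb windows (left) and bodies (right) of the 8 genes, with siCon as circles, siH19 as squares and Wilson 95% intervals of the counts as bars. Kcnq1ot1 and Cdkn1c are the highest windows by point value in both libraries, but the interval of Kcnq1ot1 overlaps that of Kcnq1 in both. Cd81 is at 0.452% and 1.07%. The gap at the Kcnq1 body, 23.6% against 29.4%, shrinks to 0.69 points when the libraries are compared within fragments.

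Over the domain, 7 of the 8 windows had at least 5 cytosines and 1 of them, Kcnq1ot1, was called, against 0.626% of all windows. None of the 8 bodies was called by the Cochran-Mantel-Haenszel test, against 85 of 23274 bodies (0.365%), and 2 of the 8, Phlda2 and Tssc4, had an unadjusted p under 0.05, as did 17.0% of all bodies. The median difference of the members was -1.41 points for windows and -0.50 for bodies, beside 0.0884 and 0.13 over all windows and bodies tested. With reads counted once, none of the 7 windows (2.45% of all windows) and none of the 8 bodies (3.32% of all bodies) had even an unadjusted p under 0.05, and no window or body of the whole series passed after adjustment.

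**Figure D4:**
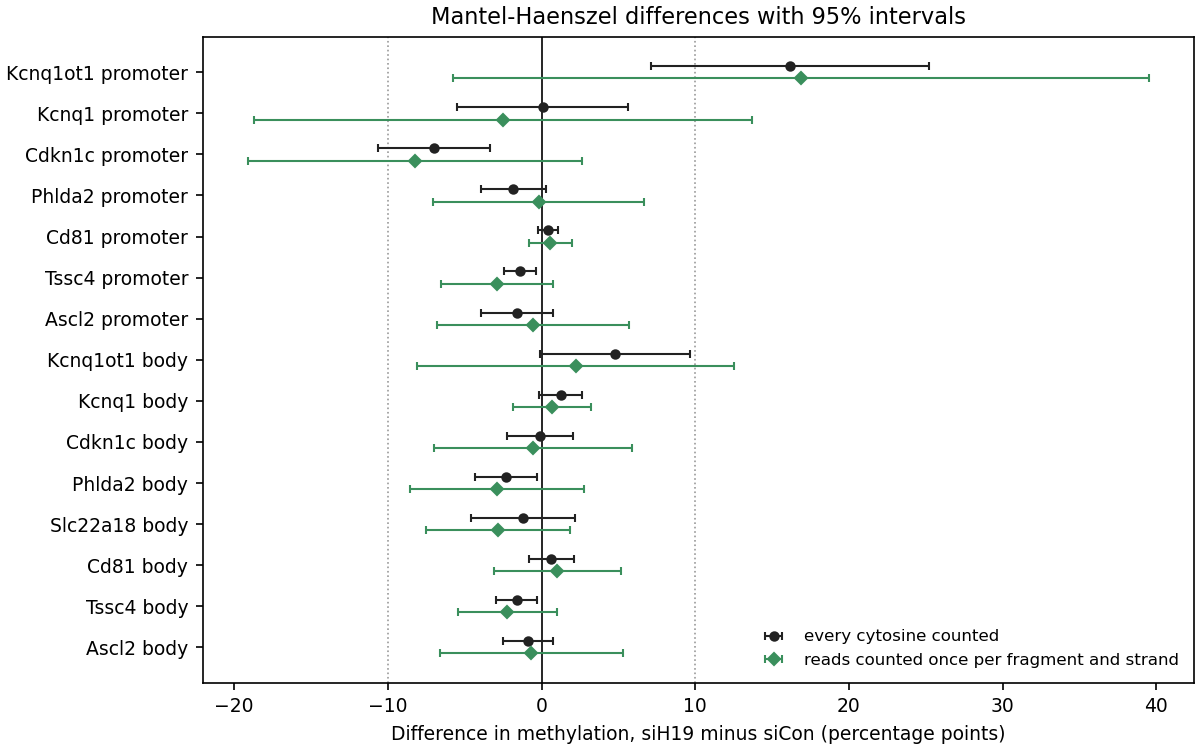
Mantel-Haenszel difference in methylation, siH19 minus siCon in percentage points, for each window and body, with 95% intervals, with every cytosine counted (circles) and with reads counted once per fragment and strand (diamonds), and dotted lines at the 10-point minimum. The Kcnq1ot1 promoter lies at 16.2 and 16.9 points, and its interval includes 0 only on the second count.

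At the level of fragments, 96 had at least 2 member cytosines, and 3 of them (3.13%) differed at p under 0.05 by Fisher's exact test with reads counted once, against 1.65% of all fragments. These were fragment C of Cdkn1c, higher in siH19, and the fragments of Slc22a18 and Tssc4 given above, lower in siH19. None passed the adjustment. Those of Slc22a18 and Tssc4 hold 1 measured CpG each, so the count at the shallowest cytosine cannot show whether a molecule was counted more than once. Their p values assume that none was. The median absolute difference of a member fragment was 3.96 points, beside 3.33 over all fragments.

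**Figure D5:**
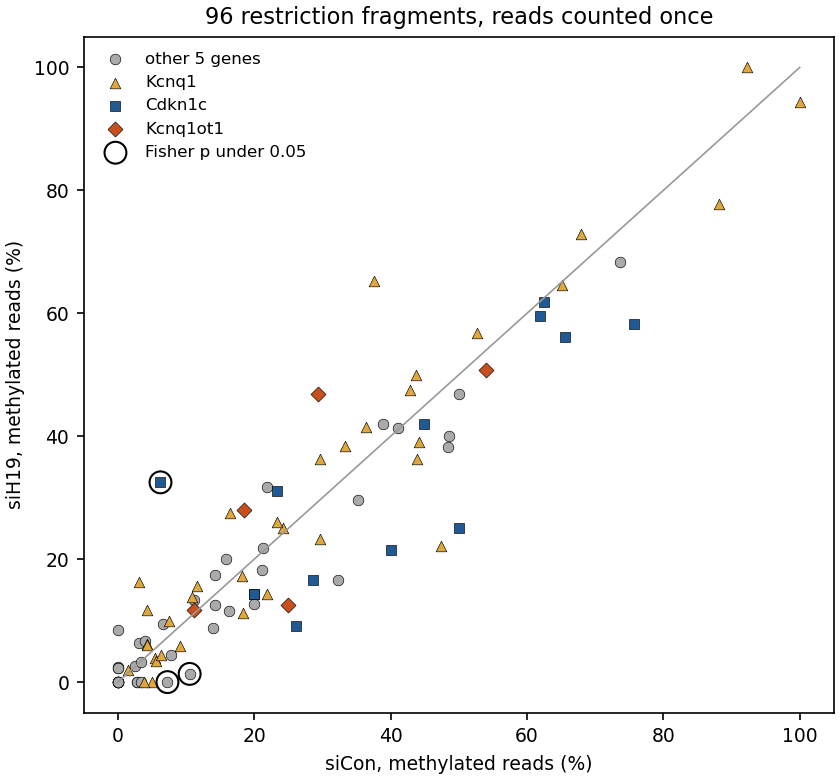
Share of methylated reads in siH19 against siCon, in percent and counted once, for the 96 restriction fragments with at least 2 member cytosines, with symbols by gene, the line of equality and rings around the 3 fragments with a Fisher p under 0.05. Most fragments lie near the line, and the ringed Cdkn1c fragment stands above it at 6.25% and 32.5%.

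Other genes of the same stretch of chromosome were taken as a list of 12 (Th, Tspan32, Trpm5, Nap1l4, Cars, Tnfrsf26, Tnfrsf22, Tnfrsf23, Osbpl5, Mrgprg, Dhcr7 and Nadsyn1). Of their windows 7 could be tested, and of their bodies 9. None was called by the Cochran-Mantel-Haenszel test with the 10-point minimum. At an adjusted p under 0.05 alone there were 3 windows, against 7.39% of all windows. All were lower in siH19 and under 10 points, Tnfrsf23 by -6.32, Nadsyn1 by -4.27 and Dhcr7 by -3.89, and the windows of Nadsyn1 and Dhcr7 are nearly the same, since all 16 cytosines of the first are among the 18 of the second. By the same rule 1 body passed, Tnfrsf23 at -5.90 points, against 3.70% of all bodies. With reads counted once, an unadjusted p under 0.05 was reached by the overlapping windows of Nadsyn1 and Dhcr7 (2.45% of all windows) and by 1 body, Dhcr7, which was higher in siH19 by 8.28 points (3.32% of all bodies).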

How the data were processed

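CpG methylation of 2 libraries, siCon and siH19, was taken from the deposited tables. Per the study's methods, Bismark was run by the authors' service provider in non-directional mode, filled-in bases were trimmed and the authors took each level as C reads over C plus T reads. The submitters' processing notes name bcl2fastq 1.8.4 and build mm10, and all 6041258 positions fell on CpGs of GRCm38. Whether duplicate reads were removed is not given in the sources used here. The main deposited field was of another kind than a plain number, giving methylated reads, total reads and percent. The deposited score matched it in 100% of entries.

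Genes came from GENCODE vM21. Strands were kept apart. Single cytosines were compared with Fisher's exact test and regions with at least 5 cytosines by the Cochran-Mantel-Haenszel test stratified by cytosine, with Benjamini-Hochberg adjustment over all cytosines, promoters or bodies. A region was called at an adjusted p under 0.05 and at least 10 points. Reads counted once are those at the shallowest cytosine of a fragment and strand, times the mean level. This count was chosen after seeing the data, since cytosines of 1 fragment share reads. On a strand with 1 measured cytosine it cannot show whether a molecule was counted more than once. Named cytosines were, per gene, the strongly changed ones with the lowest p, at most 2 in each direction. Members and lists were chosen with earlier results of these data known. Fragments D and F were picked after their values were seen. In Cdkn1c the CpGs at 143460122, 143460669 and 143460682 were chosen for their high levels. Python 3, numpy, scipy and pandas were used.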

Additional observations from a re-analysis of the deposited data

How the results depend on the processing

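No paired analysis was possible because there was 1 library per group. Each difference is siH19 minus siCon in points. The Kcnq1ot1 window kept its direction under every alternative that gave a value. All of them draw on the cytosines of fragment A, which were all higher in siH19, so the direction could hardly have turned. The call of this window was lost with cytosines as units (15.9 points, scaled chi-square adjusted p = 0.123), with the spread between fragments and strands (16.2 points, adjusted p = 0.938) and with reads counted once (16.9 points, adjusted p = 1). A 500 bp window held no Kcnq1ot1 cytosine and gave no value. The count of called windows and bodies was 0 under these 3 settings and 2, both windows, with no minimum difference, against 1. Over the whole series 7.39% of windows and 3.70% of bodies passed with no minimum, and 0.626% and 0.365% with it. Strongly changed cytosines numbered 14 of 701. They were 2 of 425 CpGs with strands summed, 33 of 1116 with cytosines in enzyme sites included and 0 of 701 at an adjusted p under 0.05. Over all cytosines the share was 0.986% in the main setting and 0.00648% at the adjusted p. Whole-series shares for the other settings are not given here. Differences that were never called turned their direction in 13 cases. The Cdkn1c body came to 1.63 points with at least 10 reads, 0.55 with strands summed and 0.59 with reads summed. The Kcnq1 window came to -0.38 with strands summed, -7.19 with reads summed and -2.51 with reads counted once. The Cd81 body came to -0.67 with reads summed and -0.0103 with cytosines as units, and the Phlda2 body to 1.38 with reads summed. With cytosines in enzyme sites the Cd81 window came to -0.38, the Tssc4 window to 0.91 and the Tssc4 body to 0.45, and the Phlda2 window came to 2.47 within 500 bp. The causes were not tested. Of the other alternative values, 109 differences kept direction and call, among them the Cdkn1c window at -4.66 to -12.7 points, and 7 counts stayed within 1.5 times. At Kcnq1ot1 32 to 34 reads per library limit the precision.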
